A study of Lepidobatrachus laevis with 14 samples.

Results

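The mitochondrial genome encodes core subunits of the respiratory chain, and 9 of these genes were followed in the developing stomach of Lepidobatrachus laevis, Budgett's frog. They are NU1M, NU2M, NU4M and NU5M (subunits ND1, ND2, ND4 and ND5 of complex I), CYB (cytochrome b of complex III), COX1, COX2 and COX3 (the core of cytochrome c oxidase, complex IV) and ATP6 (subunit a of ATP synthase, complex V). The genes were chosen by name, with earlier results of these data known. All 9 had a reviewed entry in the deposited count table, 1 row each, among 26940 rows. COX2 here is the mitochondrial oxidase subunit and not the prostaglandin synthase that shares the abbreviation.

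RNA had been extracted from left and right stomach tissue of wild-caught, wild-type animals at Gosner stage 19 and made into strand-specific sequencing libraries, 7 per side. On each side 5 libraries came from individual stomachs (replicates 1, 2, 3, 5 and 6) and 2 from pools of 5 (replicates 7 and 8). The pools were built into libraries at another facility than the individual stomachs, so that pooling and facility cannot be told apart. The study asked what differs between the left and right stomach, and all groups shared the same stage, genotype and origin.

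The respiratory chain passes electrons from NADH and succinate to oxygen through complexes I to IV and uses the proton gradient so made to drive ATP synthase. Most of its subunits are encoded in the nucleus and imported, while a small set is transcribed inside the mitochondrion from its own circular genome. Vertebrate mitochondrial genes are transcribed as long polycistronic RNAs that are then processed into individual transcripts, so the levels of mature mitochondrial RNAs reflect transcription, processing and stability together. Early embryos carry a large maternal stock of mitochondria, and respiratory capacity is known to increase as organs differentiate.

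Total counts per library ranged from 12174670 to 62707669. Libraries of replicates 1 to 3 held 21525694 to 34229305 counts, those of replicates 5 and 6 held 47441280 to 62707669, and the pools held 12174670 to 20022774. Replicates 5 and 6 stood apart from replicates 1 to 3 across the table. With these sets as a term in place of library source, the common dispersion of the edgeR fit was 0.0746 instead of 0.146. The sets come from the values and not from the labels, so the lower dispersion is no separate support for them. For the same reason, differences between the sets are described without a test. All 15 stomach wall markers looked for, among them BARX1, SOX2, NKX23, FOXF1, GATA4 and SHH, had counts in every library, with summed shares of 0.0709 to 0.146% of counts. Of the markers of other tissues, 10 liver entries summed to 0.169 to 1.21% of counts in the individual stomachs and 3.04 to 3.65% in the pools. The labels do not say whether same-numbered libraries share a stomach, and the p-values below rest on the spread among the libraries.

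Levels are given as a percentage of all counts in the library. The lowest count of any of the 9 genes in a library was 11640, and the widest 95% interval (Wilson, counting error only) reached 1.82% of the value to either side, so counting error was small beside the spread between libraries. Gene lengths were not used here, and counts were therefore not compared between genes except as ratios followed from library to library. In whole tissue, fewer mitochondria-rich cells and less mitochondrial RNA per cell cannot be told apart.

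The 9 genes together took up 4.02 to 8.48% of all counts. Their summed share was 6.46% ± 0.448 (SD, n = 6) in replicates 1 to 3, 4.27% ± 0.337 (SD, n = 4) in replicates 5 and 6, and 7.99% ± 0.445 (SD, n = 4) in the pools. These 3 ranges did not overlap, running from 5.65 to 6.99%, from 4.02 to 4.77% and from 7.46 to 8.48%. The sum hid opposite patterns among the genes, which are given below by respiratory complex.

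**Figure D1:**
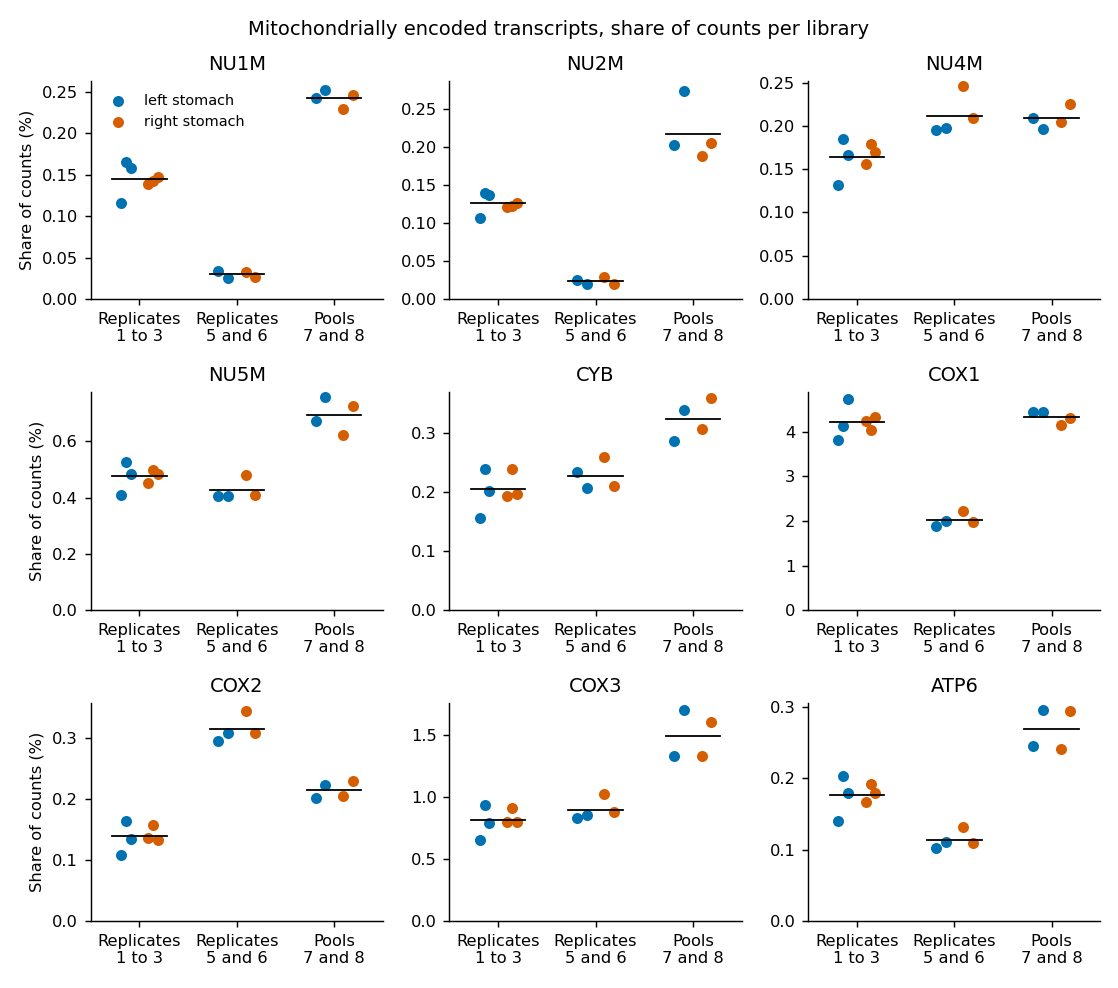
Share of all counts (%) of each of the 9 genes in every library, by library set, with the left stomach in blue and the right stomach in orange. Each point is a library and each bar the mean of its set. NU1M and NU2M are lowest in replicates 5 and 6, and COX2 is highest there, at 0.295 to 0.345%.

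Of the complex I genes, NU1M and NU2M had the largest differences between the sets. NU1M encodes ND1, a membrane subunit at the quinone-binding site of complex I. In replicates 1, 2 and 3 its share was 0.116, 0.166 and 0.158% on the left and 0.139, 0.142 and 0.148% on the right. In replicates 5 and 6 it was 0.0344 and 0.0255% on the left and 0.0333 and 0.0263% on the right. In the pools it was 0.242 and 0.251% on the left and 0.229 and 0.245% on the right. The 3 sets did not overlap, on either side. The mean share of NU1M was 4.85-fold lower in replicates 5 and 6 than in replicates 1 to 3, and 8.10-fold lower than in the pools.

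NU2M, which encodes the proton-pumping subunit ND2, followed the same order. Its share in replicates 1, 2 and 3 was 0.107, 0.140 and 0.137% on the left and 0.121, 0.123 and 0.127% on the right. In replicates 5 and 6 it was 0.0257 and 0.0202% on the left and 0.0294 and 0.0197% on the right. In the pools it was 0.203 and 0.274% on the left and 0.188 and 0.205% on the right. Replicates 5 and 6 were again the lowest 4 libraries and the pools the highest 4. The mean was 5.30-fold lower in replicates 5 and 6 than in replicates 1 to 3, and the value of 0.274% in left replicate 8 was the highest of the 14.

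The other complex I genes did not share this pattern. NU4M, which encodes the proton-pumping subunit ND4, had shares of 0.132 to 0.185% in replicates 1 to 3, with a median of 0.168%. In replicates 5 and 6 it was at 0.195 and 0.197% on the left and at 0.246 and 0.209% on the right, which put all 4 libraries above replicates 1 to 3 and the mean 1.29-fold higher. The pools, at 0.197 to 0.225%, overlapped replicates 5 and 6. NU5M, which encodes ND5, another proton-pumping subunit, ran from 0.411 to 0.525% in replicates 1 to 3 and from 0.407 to 0.482% in replicates 5 and 6, so that these sets overlapped. Its pools lay above both, at 0.623 to 0.756%.

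CYB, the catalytic cytochrome of complex III, differed little between the individual stomachs. Its share was 0.156 to 0.240% in replicates 1 to 3 and 0.207 to 0.261% in replicates 5 and 6, ranges that overlapped. The 4 pools were above them, at 0.287 to 0.360%.

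The 3 complex IV genes each behaved differently. COX1 encodes the subunit that holds the site of oxygen reduction. Its share in replicates 1, 2 and 3 was 3.82, 4.12 and 4.74% on the left and 4.24, 4.03 and 4.33% on the right. In replicates 5 and 6 it was 1.89 and 2.01% on the left and 2.22 and 1.99% on the right, 2.08-fold lower on average. In the pools it was 4.44 and 4.45% on the left and 4.14 and 4.30% on the right, which overlapped replicates 1 to 3. COX1 was thus low in replicates 5 and 6 alone among the 3 sets.

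COX2, the subunit that takes electrons from cytochrome c, differed in the other direction between replicates 1 to 3 and replicates 5 and 6. In replicates 1, 2 and 3 its share was 0.109, 0.164 and 0.135% on the left and 0.137, 0.158 and 0.134% on the right. In replicates 5 and 6 it was 0.295 and 0.308% on the left and 0.345 and 0.308% on the right. In the pools it was 0.202 and 0.223% on the left and 0.206 and 0.229% on the right. The 3 sets did not overlap, with replicates 5 and 6 highest and the mean there 2.25-fold above that of replicates 1 to 3. COX3, a structural core subunit, ran from 0.656 to 0.939% in replicates 1 to 3 and from 0.835 to 1.02% in replicates 5 and 6, which overlapped. Its pools were higher, at 1.32 to 1.70%.

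ATP6 forms part of the proton channel of ATP synthase. Its share was 0.141 to 0.203% in replicates 1 to 3, 0.103 to 0.132% in replicates 5 and 6, and 0.241 to 0.296% in the pools, and the sets did not overlap. The mean was 1.56-fold lower in replicates 5 and 6 than in replicates 1 to 3.

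Between replicates 1 to 3 and replicates 5 and 6, therefore, 4 of the 9 genes differed by more than 2-fold in mean share, 1 higher (COX2) and 3 lower (COX1, NU1M and NU2M). Over all 22158 rows that passed the filter on low counts, 19.2% differed by more than 2-fold, 7.52% higher and 11.7% lower in replicates 5 and 6. NU1M and NU2M also passed 4-fold lower, which 2.73% of rows did. Among the 82 rows with a mean share at least as high as that of the lowest of the 9 genes, 13.4% differed by more than 2-fold in either direction. The ranges did not overlap for 6 of the 9 genes, against 37.4% of all rows and 28% of those abundant rows. The 4 lower genes (COX1, ATP6, NU1M and NU2M) stand beside 22.1% of rows, and the 2 higher genes (COX2 and NU4M) beside 15.3%. Only 1.72% of rows had a lower log2 difference than NU2M (-2.41) and 2.01% a lower one than NU1M (-2.28), while 94.6% had a lower one than COX2 (1.17). The median log2 difference of the 9 genes was -0.16. NU3M, which encodes ND3 of complex I and was the only other mitochondrially encoded gene with a row of the 5 looked for, was 2.25-fold lower, at 0.0253% in replicates 1 to 3 and 0.0112% in replicates 5 and 6.

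Depth and markers of other tissues also differed between these sets. Replicates 5 and 6 were the deepest libraries. The 8 erythroid entries summed to 0.111 to 1.78% of counts in replicates 1 to 3 and 1.90 to 2.61% in replicates 5 and 6. The 7 epidermal entries summed to 0.0419 to 0.0818% and 0.124 to 0.145%, and the 4 leukocyte entries to 0.000582 to 0.00309% and 0.000241 to 0.000501%. Liver and muscle sums overlapped between the sets. Entry by entry, 6 of 12 muscle entries were more than 2-fold lower in replicates 5 and 6 and none higher, with a median log2 difference of -0.89. Of the 15 stomach wall markers 7 were more than 2-fold lower and 1 higher, with a median of -0.63, against 11.7% of all rows lower and 7.52% higher. The part of depth and of these markers in the mitochondrial differences was not tested.

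The make-up of the mitochondrially encoded counts also differed between the sets. COX1 made up 65.2% ± 2.66 of the summed counts of the 9 genes in replicates 1 to 3 (SD, n = 6), 47.4% ± 0.899 in replicates 5 and 6 (SD, n = 4) and 54.3% ± 2.16 in the pools (SD, n = 4). COX2 made up 2.16% ± 0.239, 7.36% ± 0.0917 and 2.69% ± 0.104 in the same order. NU1M made up 2.24% ± 0.141, 0.701% ± 0.109 and 3.03% ± 0.0599. The parts add up to a fixed sum, so a smaller part of COX1 leaves larger parts to the others. COX3, CYB and NU5M, which overlapped between these sets as shares of all counts, did not overlap as parts of the sum, whereas ATP6 did, at 2.49 to 3.04% and 2.57 to 2.77%. NU4M, at 2.54% ± 0.189 in replicates 1 to 3 and 2.62% ± 0.205 in the pools, stood at 4.95% ± 0.177 of the sum in replicates 5 and 6.

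**Figure D2:**
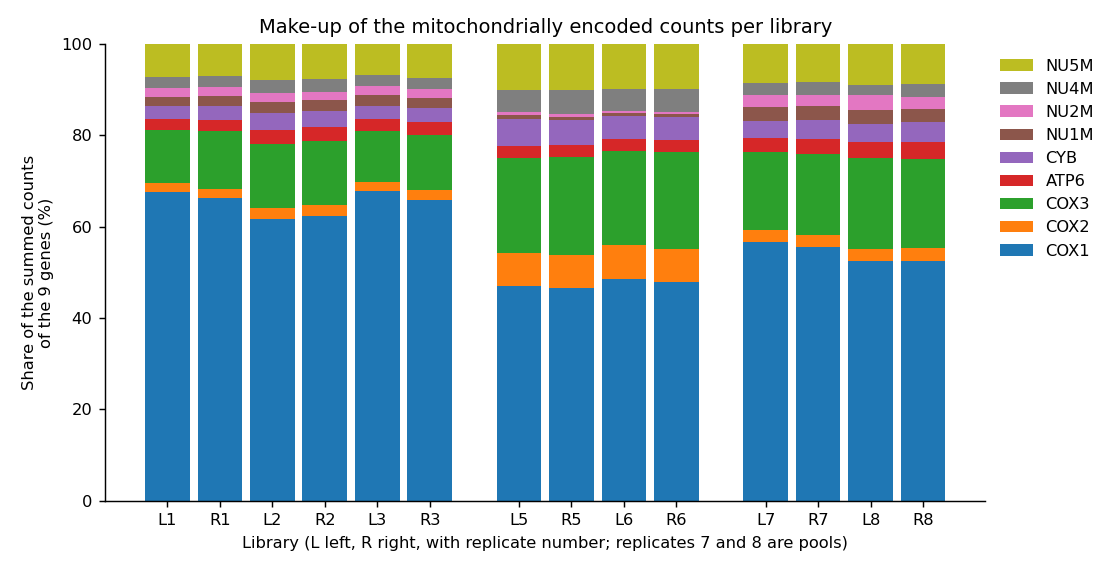
Contribution of each gene to the summed counts of the 9 genes (%), as stacked bars, 1 per library (L left, R right, with the replicate number). COX1 fills 61.7 to 67.8% of the bar in replicates 1 to 3 and 46.5 to 48.5% in replicates 5 and 6, where the COX2 and NU4M bands are wider and the NU1M and NU2M bands narrower.

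Ratios between genes of the same complex put the difference most plainly, and do not depend on library scaling. These ratios were chosen after the values were seen. NU4M counts were 1.05 to 1.25 times NU1M counts in replicates 1 to 3 and 0.782 to 0.917 times in the pools, but 5.68 to 7.95 times in replicates 5 and 6. COX2 counts were 0.0285 to 0.0399 of COX1 counts in replicates 1 to 3, 0.154 to 0.157 in replicates 5 and 6 and 0.0454 to 0.0533 in the pools. The ratio of NU2M to NU1M, by contrast, was 0.847 to 0.925 in replicates 1 to 3, 0.747 to 0.884 in replicates 5 and 6 and 0.821 to 1.09 in the pools, and these ranges overlapped. COX3 counts were 5.72 to 6.0 times COX2 counts in replicates 1 to 3 and 2.77 to 2.96 times in replicates 5 and 6. The way reads were assigned to rows and any use of strand in counting are not given in the sources used, and whether assignment differed between the sets was not tested.

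**Figure D3:**
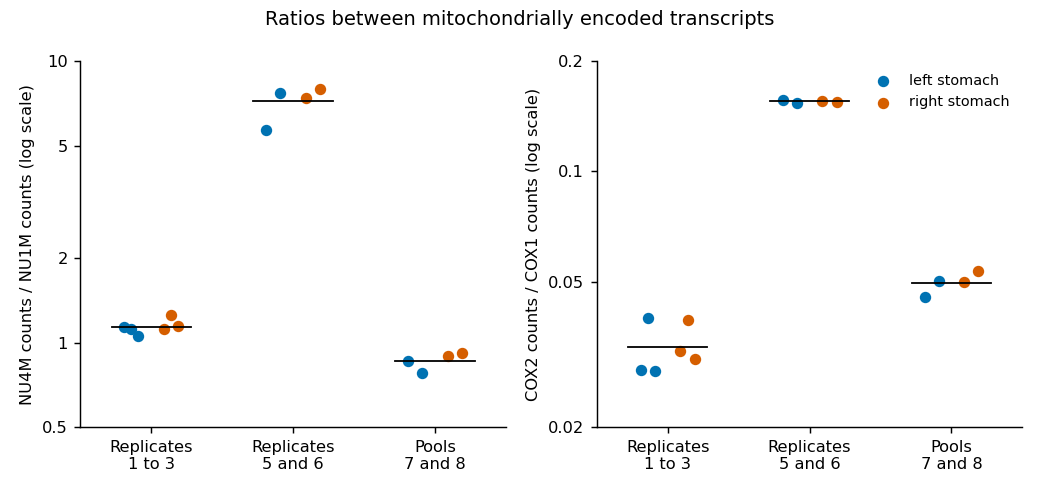
Ratio of NU4M to NU1M counts (left panel) and of COX2 to COX1 counts (right panel) in every library, on log axes, by library set, with the left stomach in blue and the right stomach in orange. Each bar is the mean of a set. The 4 libraries of replicates 5 and 6 lie at 5.68 to 7.95 and at 0.154 to 0.157, apart from all others.

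No difference between left and right stomach passed for any of the 9 genes by edgeR's quasi-likelihood test, fitted with a term for library source. Their summed share was 6.25% ± 1.73 on the left and 6.29% ± 1.41 on the right (SD, n = 7 each). Benjamini-Hochberg adjustment over 22158 rows left 0 of the 9 genes and 0 rows (0%) under 0.05. Before adjustment 227 rows, 1.02%, were under 0.05, and 0 of the 9 genes. DESeq2 also called 0 rows, with 342 (1.54%) under 0.05 before adjustment. With same-numbered libraries as a replicate block, edgeR called 0 of the 9 genes and 0 rows, with 448 (2.02%) under 0.05 before adjustment, and DESeq2 on the individual stomachs alone called 103 rows (0.459%) and 0 of the 9 genes. Every one of the 9 genes overlapped between the sides. Each side held libraries of every library set, and the sets lay apart for most of these genes. The overlap therefore cannot show whether the sides differed, and the share of all rows that overlapped is not given here.

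The side differences were small beside their errors. The log2 folds of left over right ran from -0.10 ± 0.14 (SE) for NU4M to 0.15 ± 0.48 for NU2M, with an adjusted p by edgeR that rounded to 1 for all 9 genes, and 4 were above and 5 below 0. The standard error was widest for NU1M (0.45) and NU2M (0.48), the genes that differed most between the library sets. With the 3 sets as a term, the fold of NU1M was 0.061 ± 0.11 and that of NU2M 0.11 ± 0.15. The signs of these folds changed between fits and carry no direction.

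Within same-numbered libraries of individual stomachs, the side with more mitochondrial RNA changed from number to number. In replicate 1 the left was lower for 9 of 9 genes, at 0.797 to 0.912 times the right. In replicate 2 the left was higher for 8 of 9, at 0.999 to 1.16 times, and in replicate 3 for 6 of 9, at 0.983 to 1.09 times. In replicate 5 the left was higher for 1 of 9, at 0.784 to 1.03 times, and in replicate 6 for 4 of 9, at 0.943 to 1.03 times. The genes of a pair share their libraries, so each pair counts as a single comparison. The left had the higher summed share in 2 of 5 pairs.

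Pools held more mitochondrially encoded RNA than individual stomachs for 6 of the 9 genes. By edgeR with side as a term, 6842 of 22158 rows (30.9%) differed between pools and individual stomachs, 2909 (13.1%) higher and 3933 (17.7%) lower in the pools. NU1M, NU2M, NU5M, CYB, COX3 and ATP6 were called higher and none lower. For each of these 6 genes all 4 pools lay above all 10 individual-stomach libraries, which held for 4.49% of all rows. The median log2 fold of the 9 genes was 0.82, against -0.08 over all rows tested.

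COX3 rose by a log2 fold of 1.02 ± 0.15 (SE; edgeR adjusted p = 0.000199) and NU5M by 0.82 ± 0.12 (adjusted p = 0.000199). ATP6 rose by 1.04 ± 0.18 (edgeR adjusted p = 0.000662) and CYB by 0.80 ± 0.14 (adjusted p = 0.000971). The folds of NU1M, 1.52 ± 0.47 (edgeR adjusted p = 0.0245), and NU2M, 1.59 ± 0.50 (adjusted p = 0.0265), were larger with wider errors. COX1 (0.59 ± 0.24, edgeR adjusted p = 0.0788), NU4M (0.38 ± 0.16, adjusted p = 0.0804) and COX2 (0.22 ± 0.33, adjusted p = 0.652) did not pass. DESeq2 called the same number, 6 of 9, higher, among 8032 rows (36.2%), of which 3444 (15.5% of all rows) were higher.

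The comparison with pools depended on which individual stomachs were used. Against replicates 1 to 3 alone, 8 of 9 genes were called, all higher in the pools, against 34.6% of rows called and 16.3% called higher. COX2 then rose by 0.89 ± 0.14 (edgeR adjusted p = 0.00105) and NU4M by 0.60 ± 0.12 (adjusted p = 0.00285), while COX1 was at 0.30 ± 0.11 (adjusted p = 0.0592). Against replicates 5 and 6 alone, 33.4% of rows were called. In that comparison 7 of the 9 genes were higher, against 13.7% of rows, and COX2 was lower, at -0.45 ± 0.15 (edgeR adjusted p = 0.0493), against 19.6% of rows. NU1M was higher by 1.0 ± 0.12 against replicates 1 to 3 and by 3.11 ± 0.18 against replicates 5 and 6, and COX1 was at 1.19 ± 0.15 (edgeR adjusted p = 0.000382) against the latter.

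NU1M and NU2M did not pass without left replicate 8, with folds of 1.40 and 1.35 (edgeR adjusted p = 0.0735 and 0.0983). Nor did they pass without right replicate 8, with folds of 1.51 and 1.62 (edgeR adjusted p = 0.0599 and 0.0601). Left replicate 8 had the fewest rows with counts, 21294 against 23433 to 26112 in the other libraries. It also had the highest erythroid sum (5.72% of counts) and the lowest stomach wall sum (0.0709%). The part of these traits in the calls was not tested. COX1 passed without left replicate 3 (0.67, edgeR adjusted p = 0.0409) and NU4M without right replicate 5 (0.44, adjusted p = 0.0223). Without scaling factors the median of all rows moved from -0.08 to -0.26, and the calls were 1766 higher and 5134 lower. COX3 then had a fold of 0.81, 1.08 above the median of all rows. NU1M was 1.55 above that median (1.60 with scaling) and NU2M 1.62 (1.67 with scaling), with edgeR adjusted p of 0.0558 and 0.0571.

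**Figure D4:**
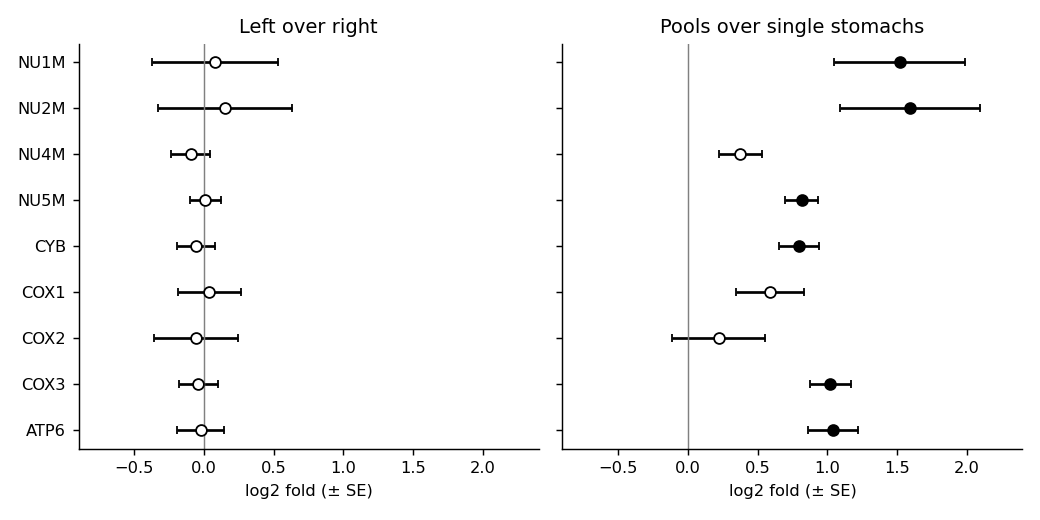
Log2 fold of each gene by edgeR, left over right stomach (left panel) and pools over individual stomachs (right panel), with bars of 1 standard error. Filled points passed the Benjamini-Hochberg threshold of 0.05 over all rows tested. No gene is filled on the left, and 6 are filled on the right.

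Calls among markers of other tissues are read beside the 13.1% of all rows called higher and the 17.7% called lower in the pools. All 10 liver entries were higher in the pools. Of 12 muscle entries tested 6 were higher and 2 lower, with sums of 0.00669 to 0.0262% in individual stomachs and 0.00890 to 0.0429% in pools, and TNNC1 was at 0 counts in some libraries. Of 6 epidermal entries tested 5 were lower, with sums of 0.0419 to 0.145% and 0.0120 to 0.0225%, and P63 was at 0 in some libraries. Of 8 erythroid entries 1 was higher, with sums of 0.111 to 2.61% and 1.86 to 5.72%. That count, like the count of lower muscle entries, was near the share of all rows. None of 4 leukocyte entries was called, and PTPRC and SPI1 were at 0 in some libraries. The pools also had the fewest counts, and the part of these differences in the mitochondrial result was not tested.

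Whether the side difference itself differed between pools and individual stomachs was tested as an interaction. All 9 genes had a positive term, from 0.24 for CYB to 0.48 for NU2M, with standard errors of 0.23 to 1.10, although that of CYB was -0.00668 without scaling factors. None passed (edgeR adjusted p 0.772 to 0.985). Over all rows 11541 terms were positive and 10617 negative. Positive terms were also found for 36 of 37 nuclear complex I genes and 63 of 71 mitochondrial ribosomal protein genes. Among markers of other tissues, 10 of 10 liver, 6 of 6 epidermal and 7 of 8 erythroid entries were positive. Muscle and leukocyte entries were mixed, with 7 of 12 and 2 of 4 positive. Positive terms were fewer among genes of mitochondrial DNA replication and transcription (6 of 15) and stomach wall markers (7 of 15). The 9 genes share the same libraries, so their signs are not separate observations. Over all rows edgeR called 0 of 22158 (0%), with 1650 (7.45%) under an unadjusted 0.05, and DESeq2 called 142 (0.641%), none of them of the 9 genes. Without left replicate 7, edgeR called 1599 rows.

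Nuclear genes of the same complexes were read beside the mitochondrial ones. Between the library sets they had a narrower spread, from -1.32 to 0.83 on the log2 scale over the 5 complexes, against -2.41 to 1.17 for the 9 genes. The medians did not set them apart from the 9 genes, whose median was -0.16. The median log2 difference of replicates 5 and 6 from replicates 1 to 3 was -0.17 for 37 nuclear complex I genes, -0.22 for 4 of complex II, -0.00 for 10 of complex III with cytochrome c, 0.11 for 10 of complex IV and 0.03 for 14 of complex V. Past 2-fold were 1 complex I entry (ACPM, the mitochondrial acyl carrier protein), 2 complex IV entries (CX6A1 and COX41) and none of the other 3 lists. Of these, COX41 had at most 39 counts in any library. No nuclear complex I gene was as low as NU1M or NU2M, the lowest standing at -1.04.

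**Figure D5:**
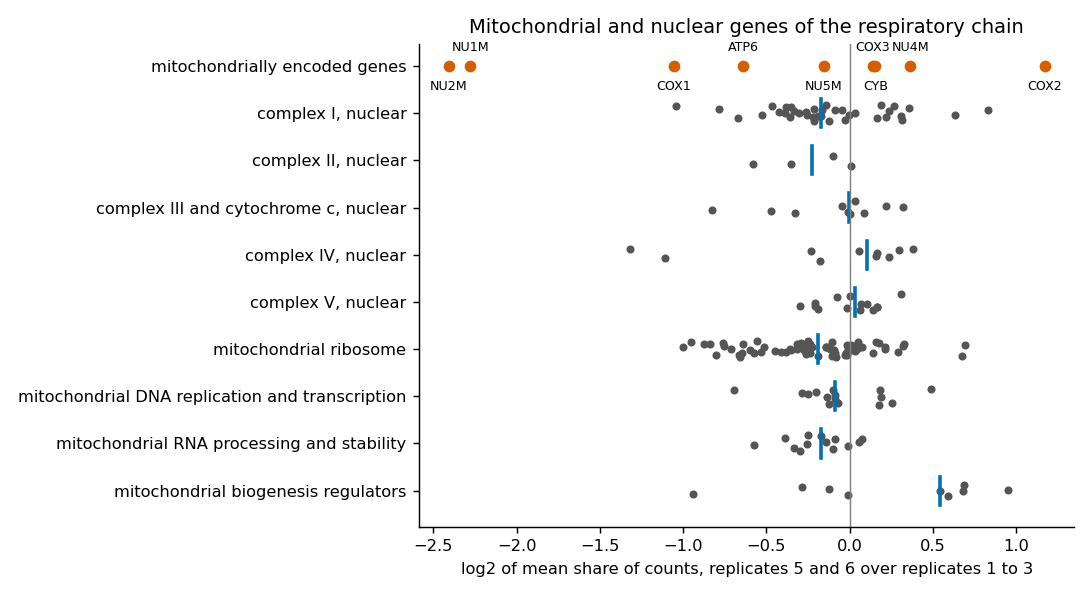
Log2 of the mean share of counts in replicates 5 and 6 over that in replicates 1 to 3, for the 9 mitochondrially encoded genes (orange, named) and for nuclear genes of 9 lists (grey points, with list medians as blue lines). The mitochondrially encoded genes run from -2.41 to 1.17, past either end of the nuclear lists.

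In the pools, many nuclear subunits were also called higher, against 13.1% of all rows. Nuclear complex I genes summed to 0.207 and 0.225% of counts in left and right replicate 7, inside the 0.186 to 0.246% of individual stomachs. In replicate 8 they summed to 0.326 and 0.270%. Replicate 7 also lay inside the individual stomachs for complexes III and IV. For complexes II and V, right replicate 7 lay just above them. Right replicate 8 lay inside them for complexes II (0.0405%) and III (0.170%) and above them for complexes I, IV and V. Left replicate 8 lay above them for every complex. The summed share of the 9 genes was above all individual stomachs in all 4 pools. Called higher by edgeR were 15 of 37 genes of complex I, 3 of 4 of complex II, 6 of 10 of complex III with cytochrome c, 4 of 10 of complex IV and 10 of 14 of complex V, with median log2 folds of 0.49, 0.44, 0.62, 0.59 and 0.65. NDUA6, an accessory subunit of complex I, rose from 62.2 ± 7.39 to 108 ± 23.2 CPM (counts per library total after TMM scaling; SD, 10 individual stomachs and 4 pools). Cytochrome c (CYC), the mobile electron carrier, rose by 0.83 ± 0.13 (edgeR adjusted p = 0.000385) and QCR6, a hinge protein of complex III, by 1.31 ± 0.21 (adjusted p = 0.000392). SDHA, the flavoprotein of succinate dehydrogenase, rose by 0.52 ± 0.10, COX5B by 0.75 ± 0.16 and AT5G3, a c subunit of ATP synthase, by 0.76 ± 0.14. The only respiratory chain entry called lower was COX41, which was at 0 counts in all 4 pools. Against replicates 5 and 6 alone the counts were 2 of 37 for complex I, 2 of 4 for complex II, 3 of 10 for complex III with cytochrome c, 1 of 10 for complex IV and 2 of 14 for complex V, against 13.7% of all rows. The counts of complexes I, IV and V were thus near or below that of all rows. The complex I count was 6 without left replicate 8 and 8 without right replicate 8, and the complex IV count was 1 without left replicate 8. The complex II count was 1 when left replicate 2 or 8 or right replicate 3 or 8 was left out.

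Genes for the machinery that makes and reads mitochondrial RNA were counted against the 13.1% of all rows called higher and 17.7% called lower in the pools. Of 71 mitochondrial ribosomal protein genes, 29 were higher in the pools and none lower, with a median of 0.42, among them RM43 (0.87 ± 0.14, edgeR adjusted p = 0.00041), and the count was 18 without left replicate 8. As shares of counts these genes summed to 0.256 to 0.350% in individual stomachs. In the pools they summed to 0.311 and 0.372% on the left and 0.317 and 0.347% on the right. Only left replicate 8 thus lay above the individual stomachs. Of 15 genes of mitochondrial DNA replication and transcription, 2 were higher and 1 lower, with a median of 0.03, and 1 was higher without left or right replicate 8. TFAM, which packages mitochondrial DNA and activates its transcription, rose from 56.5 ± 3.21 to 75.0 ± 11.1 CPM, and PEO1, the Twinkle helicase, fell by 0.60 ± 0.18 (edgeR adjusted p = 0.0209). Of 13 genes of mitochondrial RNA processing and stability, 2 were higher: RNZ2, the RNase that cuts tRNA 3' ends, and HCD2, a subunit of mitochondrial RNase P. Of 9 nuclear regulators of mitochondrial biogenesis none was higher and 3 were lower, the coactivator PRGC1 (PGC-1alpha, -1.16 ± 0.27, edgeR adjusted p = 0.00512), NRF1 (-0.51 ± 0.12, adjusted p = 0.00569) and GABPA (-0.40 ± 0.12, adjusted p = 0.0229). None of these genes was called between the sides.

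Over the 14 libraries, 5 other reviewed entries of 8486 with a mean of at least 10 CPM had the profile most like the mean log2 level of the 9 genes. They were PAK1, a kinase of the actin cytoskeleton (Pearson r = 0.978, Spearman rho = 0.978), NU3M (0.976 and 0.965), DNJC1, a chaperone of the endoplasmic reticulum (0.974 and 0.947), S39AB, a zinc transporter (0.970 and 0.943), and PRDC1, a phosphoribosyltransferase-domain protein (0.969 and 0.956). The libraries fall into 3 sets, and with each set centred on its mean the Pearson r of these entries was 0.746 to 0.865. Depth differed between these sets, and the pools were prepared at another facility than the individual stomachs. The entries were picked for likeness. Between pairs of the 9 genes themselves, Pearson r ran from -0.489 (COX1 and COX2) to 0.997 (NU1M and NU2M). Likeness to their mean is therefore not likeness to each gene.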

How the data were processed

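Strand-specific RNA sequencing libraries of left and right stomach were made from RNA purified with Trizol and a column kit, per the labels' protocols. The table deposited by the authors holds raw counts in 26940 rows named by human UniProt entries. The tools were Bowtie2 2.1.0, Bowtie, DESeq, SAMtools 0.1.19 and Trimmomatic, in unstated roles, per the submitters' processing notes. Genome build and counting method are not given in the sources used. The deposited normalized values were not used.

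The 9 genes and the 16 gene lists were chosen with earlier results of these data known. Counts were divided by library totals, with Wilson intervals at 95%. Sides were compared in R 4.3.3 by edgeR 4.0.16 (quasi-likelihood, TMM, filterByExpr by side, 22158 rows, Benjamini-Hochberg 0.05) with library source as a term, and pools with individual stomachs with side as a term. Standard errors are the log2 fold over the root of F. DESeq2 1.42.0, other scalings and filters, left-out libraries, a replicate block and subsets of libraries were alternatives. The side and source fits were also run on simulated data. The simulated libraries were independent and held no library sets, so they cannot give the error rates of the fits in these data.

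All 9 genes are named. Of each list up to 4 called entries of smallest adjusted p were eligible, and the 5 entries of mean level at least 10 CPM whose log2 CPM (prior count 2) correlated best with the 9 genes. The other entries named were chosen after their values were seen. Centred on side and source, same-numbered left and right libraries (replicates 1, 2, 3, 5 and 6) had correlations across rows of 0.595, 0.605, 0.615, 0.741 and 0.812. Libraries of the same set are alike too, so these values cannot show that same-numbered libraries share a stomach. In the sample titles these pairs share the stems Foregut, Gut, FG3, FG5 and FG6, in the order of the numbers. The pool titles hold no such stem. The numbers were left out of the main fits and used as a block in alternatives only. Centred on the 3 library sets, the values were 0.0729 to 0.447. Replicates 5 and 6 then had the same value, 0.422, which follows from having only 2 libraries per side in that set. All 42 pairs of same-side libraries differed by more than sampling noise, with 15.6 to 348 as chi-square over degrees of freedom.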

Additional observations from a re-analysis of the deposited data

How the results depend on the processing

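Between the sides, the count of rows called by edgeR remained 0 under every alternative run with that tool, and DESeq2 with the replicate block in the individual stomachs alone called 103, a fit chosen after seeing the data. The replicate block over all libraries left 0 rows and 0 of the 9 genes called and changed no call. Pools and individual stomachs share no number and were not compared in a paired fit. In that comparison left and right libraries of a number counted as separate libraries. If they share stomachs, its p-values rest on fewer independent units than libraries.

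Log2 folds of left over right changed sign in several fits, and none of these passed. In individual stomachs alone COX1 was at -0.0524 and NU5M at -0.098. With the block there, by edgeR and DESeq2 respectively, COX1 was at -0.0786 and -0.0851, NU1M at -0.0253 and -0.0317, NU2M at -0.0415 and -0.0479, and NU5M at -0.10 and -0.11. In pools alone COX2 was at 0.13, COX3 at 0.22, CYB at 0.0781, ATP6 at 0.18 and NU4M at 0.0697. Without a source term COX3 was at 0.0264 and ATP6 at 0.032, and without scaling factors NU5M was at -0.0185. Leaving out each library in turn gave -0.0873 to 0.13 for COX1, -0.20 to 0.14 for COX2, -0.15 to 0.0304 for COX3, -0.14 to 0.0164 for CYB, -0.12 to 0.0363 for ATP6, -0.11 to 0.25 for NU1M, -0.0245 to 0.33 for NU2M, -0.17 to 0.00474 for NU4M and -0.0767 to 0.0468 for NU5M.

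Pools against individual stomachs gave 2694 rows in left and 2675 in right libraries alone, and 5562 to 6859 with each library left out. The main fit gave 6842 of 22158 rows (30.9%) and 6 of the 9 genes. In right libraries alone 3 of the 9 genes were called, and 4 to 7 with each library left out. The share of all rows called in these alternatives is not given here, so these gene counts are not set against a background. Only COX2 changed sign, to -0.45 against replicates 5 and 6. NU1M and NU2M did not pass in left (adjusted p by edgeR 0.133 and 0.120) or right libraries alone (0.183 and 0.216), nor CYB in right libraries alone (0.0544).

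The interaction gave 142 rows by DESeq2 and 0 to 1599 with each library left out. Its value for CYB was -0.00668 without scaling factors and -0.0562 to 0.48 with libraries left out, and that for NU1M -0.0149 to 0.46.

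The summed share was 9.11% in pools, 7.48% in replicates 1 to 3 and 4.87% in replicates 5 and 6 over reviewed entries only, and 8.68% in pools relative to all other rows. With each library left out it was 5.88 to 6.63% on the left, 5.97 to 6.64% on the right, 5.43 to 5.76% in individual stomachs, 7.82 to 8.16% in pools, 6.36 to 6.62% in replicates 1 to 3 and 4.10 to 4.35% in replicates 5 and 6. The counts of the 9 genes were the same in all of these, and only the denominators or the libraries averaged differed. The lowest count of any of the 9 genes in a library was 11640, so counting error was small. The part of depth in the differences was not tested.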
